A study of Mus musculus with 4 samples.

Results

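The genes coding for the proteins of the cytosolic ribosome were followed in colonic epithelial cells of mice with colitis. Genes were taken by symbol, namely Rpl or Rps with a number and at most a single letter a, x or l, together with *Rplp0*, *Rplp1*, *Rplp2* and *Rpsa*. The rule itself uses no measured value. This gave 77 of the 16015 genes listed, 46 of the large and 31 of the small ribosomal subunit, and all 77 entered the test. *Rpl3l*, *Rpl10l* and *Rpl39l*, whose symbols also match, are not analysed here.

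Dextran sulfate sodium (DSS), a polysaccharide that damages the colonic epithelium, was given at 3% in the drinking water for 5 days and followed by water for 2 days, and the cells were collected on day 7. The 2 libraries labelled WT came from control mice, which the study's methods give as *Bmal1* fl/fl without Cre, and the 2 libraries labelled *Bmal1* cKO from *Villin-CreERT2; Bmal1* fl/fl mice, both with floxed *Bmal1* alleles. Tamoxifen, injected on 5 consecutive days, was taken to apply to both groups, since the methods do not set the controls apart. In the cKO mice tamoxifen switches on a Cre that the villin promoter drives in intestinal epithelium, so other cells keep *Bmal1*. All mice were C57BL/6 littermates of 2 to 4 months, and the crypts were released with EDTA, scraped off and strained, a preparation that can carry along other cells of the mucosa. BMAL1 is a transcription factor of the circadian clock, and the comparison asks how its loss changes the transcripts of the inflamed epithelium.

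Each cytosolic ribosome is built from ribosomal RNA and a set of proteins of which most are present once, so the proteins are needed in nearly equal numbers. Their mRNAs are short, abundant and translated together, because most begin with a C followed by a run of pyrimidines, the 5′ terminal oligopyrimidine (TOP) tract through which mTOR signalling sets their translation. The small subunit binds the mRNA and reads the codons. The large subunit joins the amino acids and leads the growing chain out through its exit tunnel, and the intestinal epithelium, which renews itself within days, needs a steady supply of both.

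The start sites that RefSeq lists for the genes that changed most are shown here because the TOP tract lies at the start of the mRNA. RefSeq (GRCm38.p6) gave a promoter sequence for 57 of the 77 genes, among them 7 of the 10 genes that fell most and 5 of the 10 that rose most. Each run holds 30 bases, 15 before the listed start of transcription and 15 from that base on, 5′ to 3′ on the gene's strand. Capitals mark each C followed by at least 5 further C or T, a TOP-like tract of at least 6 letters, searched on the gene's strand only. These genes were lower in the *Bmal1* cKO libraries.
Rps28, chr17:33824548-33824577, minus strand: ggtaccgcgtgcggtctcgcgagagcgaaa
Rpl28, chr7:4792950-4792979, plus strand: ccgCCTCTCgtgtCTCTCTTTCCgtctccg
Rps15, chr10:80292416-80292445, plus strand: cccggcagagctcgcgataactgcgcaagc
Rpl7a, chr2:26910792-26910821, plus strand: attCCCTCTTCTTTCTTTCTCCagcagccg
Rps10, chr17:27635230-27635259, minus strand: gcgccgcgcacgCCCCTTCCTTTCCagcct
Rpl41, chr10:128549154-128549183, minus strand: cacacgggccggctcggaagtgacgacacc
Rpl38, chr11:114668565-114668594, plus strand: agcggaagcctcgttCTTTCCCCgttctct
And these genes were higher.
Rps15a, chr7:118116133-118116162, minus strand: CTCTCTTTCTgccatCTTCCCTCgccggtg
Rpl10, chrX:74270801-74270830, plus strand: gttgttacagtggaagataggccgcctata
Rpl26, chr11:68901551-68901580, plus strand: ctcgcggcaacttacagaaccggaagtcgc
Rps4x, chrX:102189377-102189406, minus strand: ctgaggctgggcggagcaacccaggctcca
Rps6, chr4:86857353-86857382, minus strand: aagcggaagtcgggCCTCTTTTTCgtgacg
Such a tract stood in 4 of the 7 and in 2 of the 5. The windows of *Rps15* and *Rpl26* end before the gene start that GENCODE vM21 gives, so a missing tract there does not describe that start. Over all genes with a sequence it stood in 34 of 57 ribosomal protein genes (59.6%), against 25.5% of all 27025 genes with a promoter. By call it stood in 21 of 32 genes that fell, in 2 of 6 that rose and in 11 of the 19 that passed the test in neither direction. The E-box CACGTG, the sequence that BMAL1 and its partner CLOCK bind, reads the same on both strands and was searched from 250 bases before to 50 bases after the start. It was present in 6 of 57, namely *Rpl13a*, *Rpl14*, *Rpl19*, *Rpl23*, *Rpl34* and *Rps19* (10.5%), and in 8.09% of all promoters. A match describes the letters in this window and does not show that a factor binds.

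Values are normalized counts as the authors deposited them, that is, a gene's reads over a size factor fitted to each library. Changes are given on the log2 scale as *Bmal1* cKO against control, ± the standard error of the fit. Each library held between 10312791 and 14156639 reads on the genes listed. The targeted gene *Bmal1*, listed as *Arntl*, had 358 and 342 normalized counts in the controls and 341 and 289 in the cKO libraries. It thus differed by -0.16 ± 0.14 on the log2 scale (adjusted p = 0.389) and did not pass the test, so directions are given by label only. Markers of other cells also differed between the groups. The summed normalized counts of 30 leukocyte markers were 29463 and 31144 in the control and 4717 and 4761 in the *Bmal1* cKO libraries, and 22 of the 29 tested fell. Those of 21 stromal and vascular markers were 22982 and 6021 against 738 and 892, with 18 of 21 lower. Those of 5 red cell markers were 1348 and 2033 against 19.5 and 17.6, with 5 of 5 lower and *Hba-a2* at 0 reads in both *Bmal1* cKO libraries. The defining markers of the labelled cells were present, with summed values of 20 colonic epithelial markers of 339495 and 559464 against 210822 and 240490, of which 10 fell and 3 rose. The leukocyte, stromal and vascular, and epithelial markers called lower numbered 10, 10 and 6 without *Bmal1* cKO mouse 1, and 12, 10 and 8 without *Bmal1* cKO mouse 2, and the 3 epithelial rises did not pass with either left out. Mitochondrially encoded genes took 5.50% and 3.90% of the reads against 2.59% and 2.56%. The part of these differences in the values of the ribosomal protein genes was not tested, and in bulk tissue fewer cells of a type and less RNA per cell cannot be told apart.

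The ribosomal protein genes did not move as a block. In the *Bmal1* cKO libraries 43 of the 77 fell, 11 rose and 23 passed the test in neither direction (adjusted p under 0.05, limma with Benjamini-Hochberg adjustment over 13983 genes, two-sided). Over all genes tested 27.7% were lower and 29.0% higher, so the genes called lower make up a larger share of the ribosomal protein genes than of all genes and those called higher a smaller one. Their median log2 fold change was -0.57, against -0.04 over all genes tested, and the values ran from -3.56 for *Rpl23a* to 1.29 for *Rps15a*. At least 2-fold lower were 23 genes and at least 2-fold higher 2, against 23.9% and 15.7% of all genes tested. Both *Bmal1* cKO libraries lay below both control libraries for 47 genes, above both for 16 and overlapped with them for 14, against 41.7% below and 40.3% above over all genes. Each of the 54 called genes kept its direction with any single mouse left out. This follows from the groups not overlapping in any of them. With fewer samples fewer calls passed. Without control mouse 1, 28 genes were lower, against 17.0% of all genes. Genes called higher numbered 7 without control mouse 2, 4 without *Bmal1* cKO mouse 1 and 2 without *Bmal1* cKO mouse 2, against 19.0% to 22.6% of all genes in these fits. With each library scaled to its total reads, 48 genes were lower and 7 higher, against 34.9% and 22.1% of all genes, and the median of all genes tested moved from -0.04 to -0.26.

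**Figure D1:**
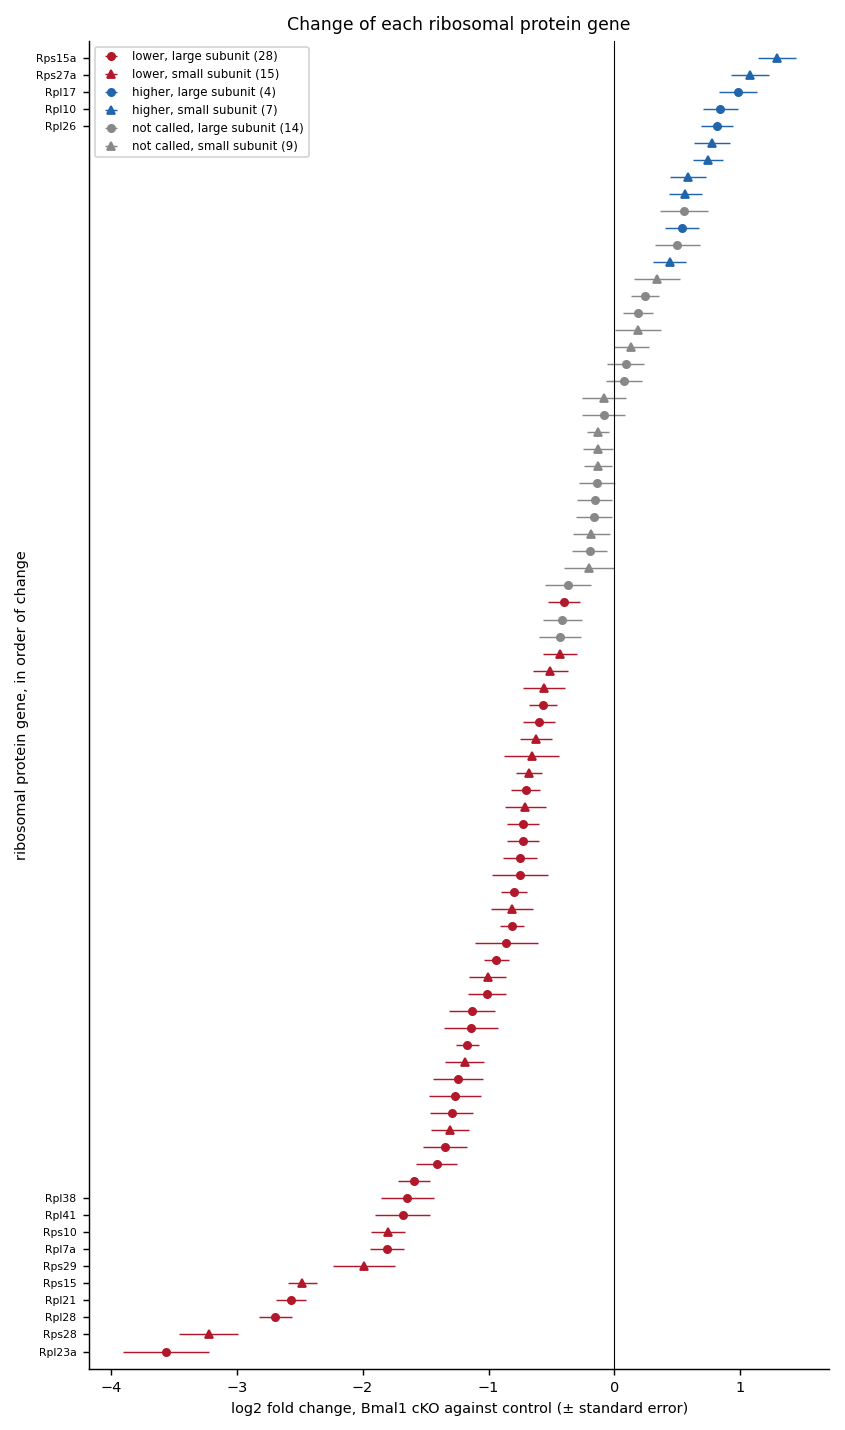
Log2 fold change (x axis, *Bmal1* cKO against control, bars ± standard error, 2 mice per group) of the 77 ribosomal protein genes in order of change (y axis, the 10 lowest and the 5 highest named), with circles for the large and triangles for the small subunit and colour for the call. The values run from -3.56 to 1.29, 43 genes are called lower and 11 higher, and both subunits have genes at both ends.

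The control mice differed from each other by an amount that was nearly the same for every ribosomal protein gene, the *Bmal1* cKO mice by amounts that varied more, and the groups by amounts that varied most. Control mouse 1 was above control mouse 2 for 76 of 77 genes, with a median log2 difference of 0.25 and a standard deviation across the genes of 0.09. Over all genes tested control mouse 1 was the higher for 51.1%. *Bmal1* cKO mouse 1 was above *Bmal1* cKO mouse 2 for 13 of the 77, against 49.5% of all genes tested, with a median difference of -0.21 (mouse 1 minus mouse 2) and a standard deviation of 0.25. In contrast, the 4 differences between a *Bmal1* cKO and a control mouse had standard deviations of 0.93 to 1.03 across the same genes and medians of -0.75 to -0.33. The spread of the differences between the groups was thus wider than either spread within a group. The same held over all genes tested, with standard deviations of 0.79 and 0.57 within the groups and 1.42 between the group means, where that of the ribosomal protein genes was 0.97.

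**Figure D2:**
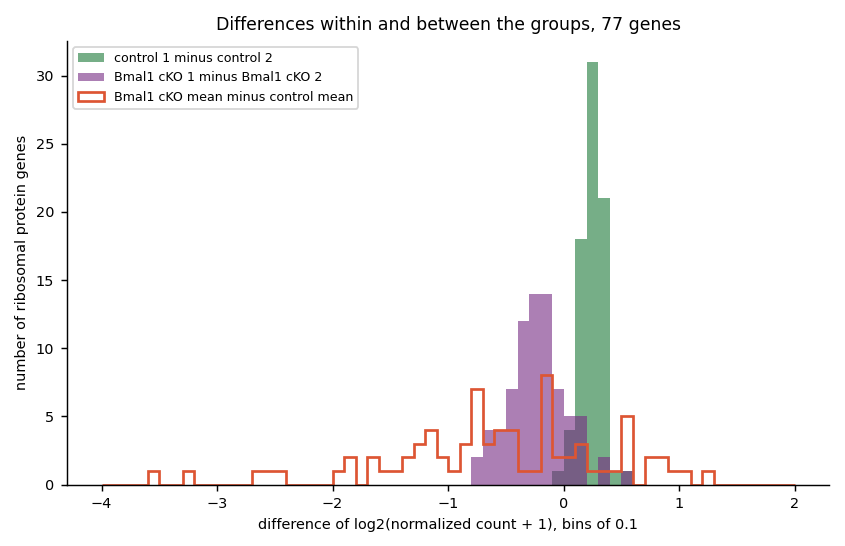
Number of ribosomal protein genes (y axis) by the difference of log2(normalized count + 1) (x axis, bins of 0.1) between the control mice, between the *Bmal1* cKO mice and between the group means. The differences within a group form narrow peaks, with standard deviations of 0.09 and 0.25, and the differences between the groups spread from -3.56 to 1.29.

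Of the genes that fell most, the first 5 were 5.57-fold to 12-fold lower by their group means, and the groups did not overlap. *Rpl23a*, which sits at the mouth of the exit tunnel where the signal recognition particle docks, had 318 and 247 normalized counts in the controls and 17.5 and 29.7 in the *Bmal1* cKO libraries, that is, -3.56 ± 0.34 on the log2 scale (adjusted p = 9.66e-04). *Rps28*, a small protein beside the mRNA exit channel, had 1771 and 1386 normalized counts in the controls and 136 and 205 in the *Bmal1* cKO libraries, that is, -3.22 ± 0.23 on the log2 scale (adjusted p = 5.49e-04). *Rpl23a* was among the weakly read ribosomal protein genes in the control libraries already, whereas *Rps28* was not. *Rpl28*, a large subunit protein found only in eukaryotes, had 4671 and 3999 normalized counts in the controls and 613 and 726 in the *Bmal1* cKO libraries, that is, -2.69 ± 0.13 on the log2 scale (adjusted p = 5.33e-04). *Rpl21*, another protein of the large subunit, had 5543 and 4743 normalized counts in the controls and 816 and 916 in the *Bmal1* cKO libraries, that is, -2.57 ± 0.12 on the log2 scale (adjusted p = 5.33e-04). *Rps15*, whose tail reaches towards the site where the codon is read, had 4171 and 3728 normalized counts in the controls and 654 and 764 in the *Bmal1* cKO libraries, that is, -2.48 ± 0.12 on the log2 scale (adjusted p = 5.33e-04). In these 3 genes the mice of a group were close to each other beside a difference between the groups of 5.57-fold to 6.48-fold.

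The other 5 of the 10 largest falls were 3.09-fold to 3.9-fold. *Rps29*, a zinc-binding protein of the small subunit head, had 2730.5 and 2178 normalized counts in the controls and 482 and 777 in the *Bmal1* cKO libraries, that is, -1.99 ± 0.25 on the log2 scale (adjusted p = 0.00193). *Rpl7a*, a large subunit protein whose introns also encode small nucleolar RNAs, had 8014 and 7230.3 normalized counts in the controls and 1944 and 2434 in the *Bmal1* cKO libraries, that is, -1.81 ± 0.14 on the log2 scale (adjusted p = 5.93e-04). *Rps10*, which is ubiquitinated when ribosomes collide, had 5512 and 4773 normalized counts in the controls and 1338 and 1619 in the *Bmal1* cKO libraries, that is, -1.80 ± 0.13 on the log2 scale (adjusted p = 5.66e-04). In all 3 the higher *Bmal1* cKO library stayed far under the lower control library. *Rpl41*, the shortest protein of the ribosome, had 8825 and 7882 normalized counts in the controls and 2089 and 3231 in the *Bmal1* cKO libraries, that is, -1.68 ± 0.22 on the log2 scale (adjusted p = 0.00214). *Rpl38*, known for its part in the translation of Hox mRNAs in the embryo, had 1915 and 1577 normalized counts in the controls and 457 and 673 in the *Bmal1* cKO libraries, that is, -1.65 ± 0.21 on the log2 scale (adjusted p = 0.00209). For *Rpl41* and *Rpl38* the *Bmal1* cKO mice differed from each other by a larger ratio than the control mice did. With the correction for GC content and length, described below, *Rps10* was at -1.12 and *Rpl38* at -1.08. With the longest transcript of each gene in that correction they were at -0.39 (adjusted p = 0.0903) and -0.34 (adjusted p = 0.273) and no longer passed.

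The largest rises were smaller than the largest falls, and of the 11 genes called higher *Rps15a* (2.44-fold) and *Rps27a* (2.1-fold) were at least 2-fold up. *Rps15a*, a protein of the small subunit, had 4403 and 3499 normalized counts in the controls and 8916 and 10338 in the *Bmal1* cKO libraries, that is, 1.29 ± 0.15 on the log2 scale (adjusted p = 0.00161). *Rps27a*, which is made as a fusion with ubiquitin and so also supplies ubiquitin, had 5996 and 4919 normalized counts in the controls and 10479 and 12489.5 in the *Bmal1* cKO libraries, that is, 1.07 ± 0.15 on the log2 scale (adjusted p = 0.00284). These 2 rises passed the test under every alternative listed in the closing section, though with the correction for GC content and length, described below, both were at 0.83 and thus under 2-fold, and with the longest transcript in it *Rps15a* was at 0.67. *Rpl17*, whose loop lines the exit tunnel, had 7596 and 6114 normalized counts in the controls and 12509 and 14517 in the *Bmal1* cKO libraries, that is, 0.98 ± 0.15 on the log2 scale (adjusted p = 0.00401). *Rpl10*, which joins the large subunit late in its assembly close to the peptidyl transferase centre, had 11331 and 9424 normalized counts in the controls and 18203 and 18868 in the *Bmal1* cKO libraries, that is, 0.84 ± 0.14 on the log2 scale (adjusted p = 0.00476). *Rpl26*, at the rim of the exit tunnel, had 6275 and 5333 normalized counts in the controls and 9639 and 10715 in the *Bmal1* cKO libraries, that is, 0.81 ± 0.13 on the log2 scale (adjusted p = 0.00415). In all 5 genes both *Bmal1* cKO libraries lay above both control libraries by more than the mice of a group differed.

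Further rises lay between 1.44-fold and 1.7-fold. *Rps4x*, a small subunit protein encoded on the X chromosome, had 9648 and 7713 normalized counts in the controls and 14785 and 14713 in the *Bmal1* cKO libraries, that is, 0.77 ± 0.14 on the log2 scale (adjusted p = 0.00729). *Rps6*, the substrate of the S6 kinases, had 7649 and 6291 normalized counts in the controls and 9659 and 11209 in the *Bmal1* cKO libraries, that is, 0.58 ± 0.15 on the log2 scale (adjusted p = 0.0195). The groups did not overlap in either gene. *Rpl7*, a large subunit protein, had 10806 and 9010.0 normalized counts in the controls and 14083 and 14547 in the *Bmal1* cKO libraries, that is, 0.54 ± 0.13 on the log2 scale (adjusted p = 0.0196). Scaled to library totals, the rises of *Rps6* and *Rpl7* no longer passed the test (log2 fold change 0.36 and 0.31, adjusted p = 0.0878 and 0.107). With the correction for GC content and length, described below, *Rpl7* was at 0.02 (adjusted p = 0.918). Without *Bmal1* cKO mouse 2 the rises of *Rpl17*, *Rpl10*, *Rpl26*, *Rps4x*, *Rps6* and *Rpl7* did not pass (0.48 to 0.88, adjusted p 0.0540 to 0.143), and without *Bmal1* cKO mouse 1 those of *Rpl10*, *Rps4x*, *Rps6* and *Rpl7* did not (0.56 to 0.87, adjusted p 0.0584 to 0.121). Those of *Rps6* (0.44) and *Rpl7* (0.41) also did not pass without control mouse 2 (adjusted p = 0.0918 and 0.0748).

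The 5 genes with the smallest change stood at ranks 55 to 59 of the 77, counted from the largest fall, and not at the middle of the order, since most values are below 0. *Rpl23*, which lies on the subunit interface, had 4523 and 3752 normalized counts in the controls and 3976 and 4742 in the *Bmal1* cKO libraries (change 0.08 ± 0.14). *Rps7*, a small subunit protein that also binds MDM2, had 8423 and 6679 normalized counts in the controls and 6308 and 7959 in the *Bmal1* cKO libraries (change -0.08 ± 0.17). *Rpl22*, which has a paralog in *Rpl22l1*, had 2811 and 2305 normalized counts in the controls and 2092 and 2757 in the *Bmal1* cKO libraries (change -0.08 ± 0.17). In these 3 genes the libraries of the groups overlapped. With the correction for GC content and length, described below, *Rpl22* was called lower (-0.54, adjusted p = 0.0435), but not with the longest transcript in it (-0.26). The remaining 2, *Rplp0* and *Rps27l*, are given with their roles. A small difference that misses the threshold does not show that these transcripts were unchanged, and at 2 mice per group the standard errors of these 5 genes were 0.09 to 0.17.

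By subunit, 28 of the 46 large subunit genes fell and 4 rose, with a median log2 fold change of -0.73, and 15 of the 31 small subunit genes fell and 7 rose, with a median of -0.20. Over all genes tested 27.7% were lower and 29.0% higher, so the rises of either subunit did not exceed that share without the correction, and the counts by site that follow rest on few genes and are to be read against it. With the correction for GC content and length, described below, 21 large subunit genes fell and 3 rose (median -0.42), and 13 small subunit genes fell and 7 rose (median -0.02), against 17.4% lower and 17.3% higher over all genes. The difference between the subunits was not tested, since the genes of a subunit are not replicates. Within the large subunit the stalk, a flexible arm that recruits the factors driving each step of translation, had 2 of its 4 genes called lower. These were its acidic tip proteins. *Rplp1* had 10440.3 and 8906 normalized counts in the controls and 6102 and 5561 in the *Bmal1* cKO libraries, that is, -0.73 ± 0.12 on the log2 scale (adjusted p = 0.00557). *Rplp2* had 3225 and 2658 normalized counts in the controls and 1693 and 1849 in the *Bmal1* cKO libraries, that is, -0.73 ± 0.12 on the log2 scale (adjusted p = 0.00561). Their anchor *Rplp0* had 22177 and 20014 normalized counts in the controls and 21065 and 23825 in the *Bmal1* cKO libraries (change 0.09 ± 0.15), and *Rpl12* at the base of the stalk had 8175 and 6604 normalized counts in the controls and 6728 and 6104 in the cKO libraries (change -0.20 ± 0.14). For *Rplp0* and *Rpl12* the libraries of the groups overlapped, and the difference between tip and anchor was not tested. With the correction *Rplp1* turned to 0.08 and *Rplp2* went to -0.19, and both no longer passed the test (adjusted p = 0.598 and 0.277). *Rplp1* did not pass without *Bmal1* cKO mouse 2 (adjusted p = 0.0706) and *Rplp2* without *Bmal1* cKO mouse 1 (adjusted p = 0.0594).

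*Rpl5* and *Rpl11* enter the large subunit together with the 5S RNA and, outside the ribosome, bind MDM2, the protein that degrades p53. *Rpl11* had 4935 and 4328 normalized counts in the controls and 1963 and 3305 in the *Bmal1* cKO libraries, that is, -0.86 ± 0.25 on the log2 scale (adjusted p = 0.0322). *Rpl5* had 7304 and 6040.2 normalized counts in the controls and 4399 and 5984 in the *Bmal1* cKO libraries (change -0.37 ± 0.18, adjusted p = 0.133). Both *Bmal1* cKO libraries lay below both control libraries for either gene, by a narrow margin for *Rpl5*. With the correction *Rpl5* was lower (-1.22, adjusted p = 0.00727), while *Rpl11* did not pass (-0.55, adjusted p = 0.131). *Rpl11* also missed the threshold without control mouse 1 (adjusted p = 0.180), without control mouse 2 (adjusted p = 0.118) and without *Bmal1* cKO mouse 1 (-0.48, adjusted p = 0.0809).

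The 8 genes of the exit tunnel and its rim split, with 4 lower and 2 higher. With the correction the numbers were the same but not the genes. *Rpl35* no longer passed (-0.34, adjusted p = 0.258). Before the correction *Rpl35* also did not pass without control mouse 1 (-0.98) or without *Bmal1* cKO mouse 1 (-0.93). *Rpl4* was called lower (-0.46, adjusted p = 0.0441), but not with the mouse number as a block as well or with the longest transcript (-0.43). Besides *Rpl23a*, the rim proteins *Rpl19*, *Rpl31* and *Rpl35* fell. *Rpl19*, which also bridges the subunits, had 7319.6 and 6529.8 normalized counts in the controls and 2232 and 3018 in the *Bmal1* cKO libraries, that is, -1.41 ± 0.17 on the log2 scale (adjusted p = 0.00163). *Rpl31* had 3628 and 3043 normalized counts in the controls and 1465 and 1855 in the *Bmal1* cKO libraries, that is, -1.01 ± 0.15 on the log2 scale (adjusted p = 0.00369). *Rpl35* had 376 and 302 normalized counts in the controls and 132 and 176 in the *Bmal1* cKO libraries, that is, -1.14 ± 0.21 on the log2 scale (adjusted p = 0.00769). At the rim as well, *Rpl26* rose, and so did *Rpl17* further inside. In the tunnel wall *Rpl4*, which forms the narrowest part with *Rpl17*, had 14747 and 13081 normalized counts in the controls and 11579.9 and 13413 in the *Bmal1* cKO libraries (change -0.16 ± 0.14). *Rpl39*, another wall protein, had 3427 and 2664 normalized counts in the controls and 3758 and 4866 in the *Bmal1* cKO libraries (change 0.50 ± 0.18, adjusted p = 0.0595). The libraries overlapped for *Rpl4*, and for *Rpl39* both *Bmal1* cKO libraries were the higher ones without passing the test. Neighbours at the same site of the particle thus differed in opposite directions, from -3.56 to 0.98 on the log2 scale.

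Around the peptidyl transferase centre, where the peptide bond is made, *Rpl10* rose, *Rpl8* fell and *Rpl3* passed in neither direction. *Rpl8* had 7528 and 6837 normalized counts in the controls and 4233 and 4029 in the *Bmal1* cKO libraries, that is, -0.80 ± 0.10 on the log2 scale (adjusted p = 0.00208). *Rpl3* had 10504 and 9333 normalized counts in the controls and 10884 and 11723 in the *Bmal1* cKO libraries (change 0.19 ± 0.12). The fall of *Rpl8* turned to 0.21 (adjusted p = 0.129) once corrected for GC content and length, whereas the rise of *Rpl10* kept a value of 0.85 (adjusted p = 0.00916).

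In the small subunit, 9 of the 10 head genes fell. The head swivels as the mRNA and tRNAs move through the ribosome. *Rps25*, which some viral mRNAs need to recruit the ribosome, had 5197 and 4357 normalized counts in the controls and 1724 and 2151 in the *Bmal1* cKO libraries, a change of -1.30 ± 0.15. *Rps19*, mutated in Diamond-Blackfan anaemia, had 4900.0 and 3796 normalized counts in the controls and 2733 and 2205 in the *Bmal1* cKO libraries, a change of -0.81 ± 0.17. The *Bmal1* cKO libraries were below the controls in both of these genes. *Rps18*, which bridges to the large subunit, had 8126 and 7299.8 normalized counts in the controls and 4819 and 4799.8 in the *Bmal1* cKO libraries, a change of -0.68 ± 0.10. *Rps20*, also of the head, had 6454 and 5236 normalized counts in the controls and 3815 and 3718 in the *Bmal1* cKO libraries, a change of -0.63 ± 0.13. *Rps16*, whose end reaches the tRNA sites, had 5574 and 4499 normalized counts in the controls and 3733 and 3317 in the *Bmal1* cKO libraries, a change of -0.51 ± 0.14. These 5 falls had adjusted p between 0.00153 and 0.0255, and *Rps10*, *Rps15* and *Rps29*, given above, fell too. *Rps12*, the exception, had 11280.1 and 9198 normalized counts in the controls and 10739.6 and 11657 in the *Bmal1* cKO libraries with overlapping groups (change 0.14 ± 0.14). After the correction 7 of the 10 fell. *Rps18* no longer passed (-0.23, adjusted p = 0.124), and *Rps19* turned to 0.38 (adjusted p = 0.106). With the mouse number as a block as well, *Rps19* was called higher (adjusted p = 0.0433). The falls of *Rps16* and *Rps19* did not pass without control mouse 1 or without *Bmal1* cKO mouse 2, and those of *Rps16* and *Rps20* did not without *Bmal1* cKO mouse 1 (adjusted p 0.0657 to 0.164, *Rps20* also without *Bmal1* cKO mouse 2).

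At the mRNA entry, where the small subunit unwinds the message, the 3 genes went 3 ways. *Rps9* had 7908 and 6504 normalized counts in the controls and 2818 and 3504 in the *Bmal1* cKO libraries, that is, -1.19 ± 0.16 on the log2 scale (adjusted p = 0.00226). *Rps3*, which also has a part in DNA repair, had 9475 and 8568 normalized counts in the controls and 11368 and 13119 in the *Bmal1* cKO libraries, that is, 0.44 ± 0.13 on the log2 scale (adjusted p = 0.0326). This rise no longer passed with the correction (0.18, adjusted p = 0.30), with library totals (0.21, adjusted p = 0.203), with the mouse number as a block (adjusted p = 0.0545) or with any single mouse left out (adjusted p 0.0757 to 0.203, limma). *Rps2* had 15780.5 and 14978 normalized counts in the controls and 15037 and 12181 in the *Bmal1* cKO libraries with overlapping groups (change -0.18 ± 0.15), and after the correction it was higher (0.59, adjusted p = 0.0274). At the mRNA exit *Rps28* fell. *Rpsa*, also known as the laminin receptor, had 17926 and 15457 normalized counts in the controls and 11882 and 12788 in the *Bmal1* cKO libraries, that is, -0.43 ± 0.13 on the log2 scale (adjusted p = 0.0383). *Rps14* had 7434 and 6202 normalized counts in the controls and 7076 and 4919 in the *Bmal1* cKO libraries (change -0.20 ± 0.20). *Rps26*, which touches the mRNA just upstream of the start codon, had 6959 and 6281 normalized counts in the controls and 5739 and 6343 in the *Bmal1* cKO libraries (change -0.13 ± 0.11). After the correction *Rps26* was called lower (-0.36, adjusted p = 0.0452), but not with the longest transcript in it (-0.23). The fall of *Rpsa* was small and turned to 0.28 after the correction (adjusted p = 0.152). With the longest transcript in the correction *Rpsa* was at -0.45 and did not pass either. Its fall no longer passed with the block (adjusted p = 0.0659) or with any single mouse left out (-0.54 to -0.33). The groups overlapped for *Rps14* and *Rps26*. *Rps27l*, a p53-inducible paralog of *Rps27*, had 1726 and 1731 normalized counts in the controls and 1524 and 1634 in the *Bmal1* cKO libraries (change -0.13 ± 0.09, adjusted p = 0.251), which became lower with the correction (-0.80, adjusted p = 0.00349).

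Levels can be compared between genes only per length, here as normalized counts per kb of the shortest principal transcript. In the control libraries the 77 genes had a median level of 7857 and 6734 per kb, and in the *Bmal1* cKO libraries of 4428 and 4915 per kb. On the log2 scale the standard deviation of the level per kb across the genes was 0.93 and 0.95 in the control libraries. It was 1.58 and 1.46 in the *Bmal1* cKO libraries, so the values per kb were spread more widely there. These values are not corrected for GC content, and whether the transcript numbers themselves were less equal was not tested. *Rps12* stood highest in the controls (20727 per kb as the group mean), followed by *Rplp1* (19385) and *Rpl41* (19115). In the *Bmal1* cKO libraries *Rpl10* led with 23198 per kb, close to *Rps12* with 22668, while *Rplp1* was at 11686 and *Rpl41* at 6086. *Rpl35* (358 per kb) and *Rpl23a* (505) stood far below all others in the controls, the next being *Rps20* with 1577. The transcript taken for *Rps20* is the longest of the 77 (3706 bases, against a median of 681), so its value rests on that choice. Without dividing by length, 6 genes had a mean of at least 10000 normalized counts in the control and 16 in the *Bmal1* cKO libraries, although the summed share of these genes in the reads was lower there.

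**Figure D3:**
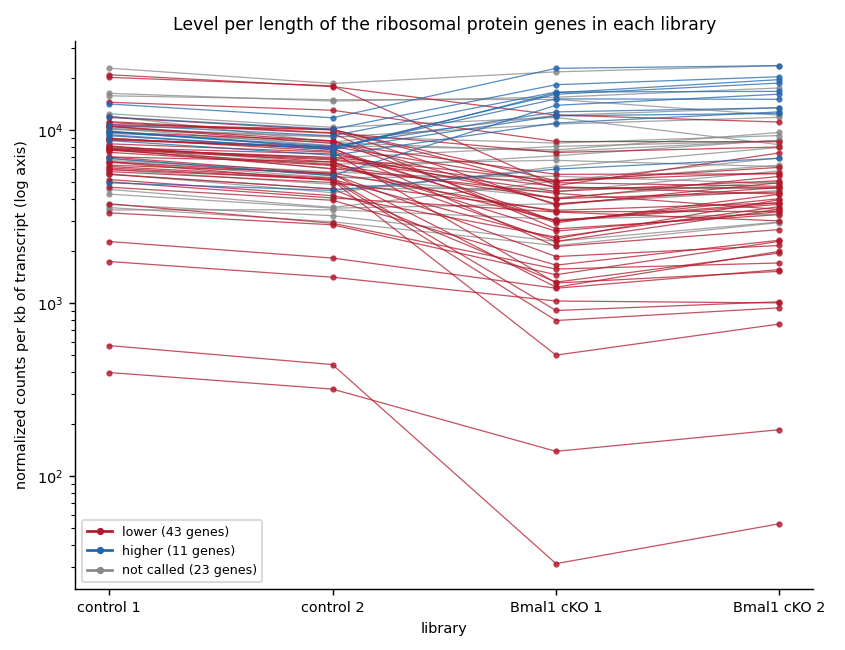
Normalized counts per kb (y axis, log axis) of the 77 ribosomal protein genes in each of the 4 libraries (x axis), each line 1 gene and coloured by its call. The lines run nearly parallel between the control mice and fan out towards the *Bmal1* cKO mice, where the lowest gene is *Rpl23a* with 31.2 and 53.1 per kb and the highest *Rpl10*.

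As a share of all reads on listed genes the ribosomal protein genes took 4.25% and 3.53% in the control libraries and 2.80% and 3.02% in the *Bmal1* cKO libraries. The means were 3.89% ± 0.513 (SD, n = 2) and 2.91% ± 0.159 (SD, n = 2), a difference of -0.98 percentage points (exact permutation test, two-sided, p = 0.333, the smallest that 2 against 2 can give). Without control mouse 1 the difference was -0.62 percentage points, and without control mouse 2 it was -1.35. The large subunit genes took 2.52% and 2.11% against 1.51% and 1.68%, and the small subunit genes 1.74% and 1.42% against 1.29% and 1.34%. The groups did not overlap in any of these shares. Without the 100 other genes with the most reads, the share of the normalized counts was 5.27% and 4.41% against 3.36% and 3.65%. Within the ribosomal protein reads, the 5 genes that fell most took 3.32% and 3.33% in the control and 0.583% and 0.627% in the *Bmal1* cKO libraries. The 5 that rose most went from 7.18% and 6.92% to 15.6% and 15.9%. Both sets were picked by their change in these same libraries, so their shares move apart by selection.

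The change of a gene followed the GC content of its transcript, in the ribosomal protein genes and in the rest of the libraries. Across the 77 genes Spearman's rho between the log2 fold change and the GC content was -0.43 and Pearson's r -0.38, and across the 13975 genes with a known GC content rho was -0.61. These describe genes that share the same 4 libraries and are no test. The 43 genes that fell had a median GC content of 53.6% and the 11 that rose 48.5%. Length followed less, with a rho of 0.21, and medians of 677 bases in the genes that fell and 799 in those that rose. In 5 equal classes of GC content over all tested genes, the median of the ribosomal protein genes was below that of the other genes of their class, and in the highest class it was close to it. From 44.6% to 48.6% GC the 20 ribosomal protein genes had a median of -0.13 and the other 2775 genes 0.45. Of those 20 genes 6 fell and 6 rose, against 9.77% and 45.0% of the other genes. From 48.6% to 52.3% the medians were -0.15 (18 genes) and 0.06, and 7 of the 18 fell, against 18.2% of the others. From 52.3% to 56.0% they were -0.69 (22 genes) and -0.45, with 15 of the 22 lower against 39.1%. Above that they were -1.17 (15 genes) and -1.10, with 14 of the 15 lower against 65.5%. The lowest class held 2 ribosomal protein genes.

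**Figure D4:**
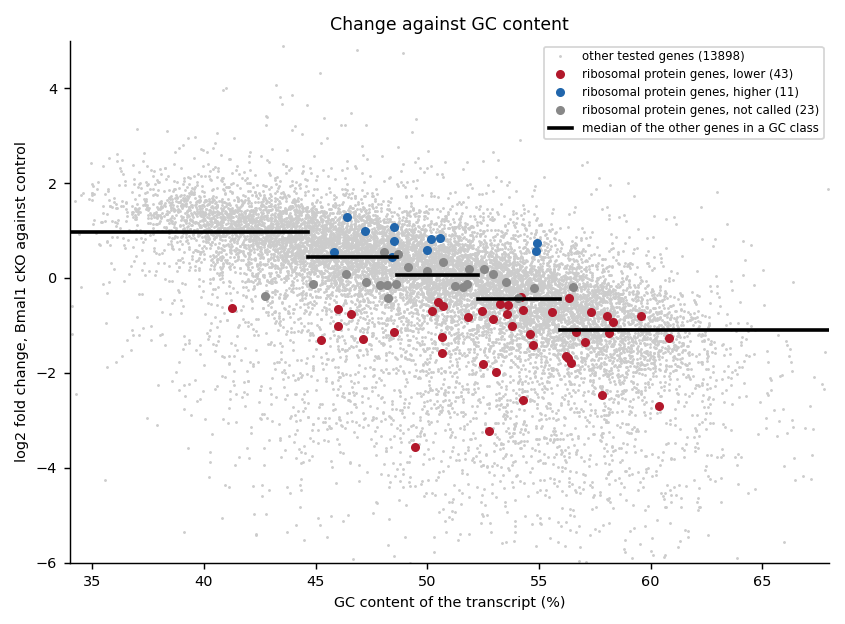
Log2 fold change (y axis) against the GC content of the transcript in percent (x axis) for the 77 ribosomal protein genes, coloured by call, over the other tested genes in grey, with bars for the median of the other genes in each of 5 equal classes. The other genes' median falls from 0.96 in the lowest class to -1.10 in the highest, and the ribosomal protein genes spread on both sides of it, with 60 other genes lying outside the axes.

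Each library was therefore also corrected by a loess curve on GC content and length. The correction left 34 genes lower and 10 higher, against 17.4% and 17.3% of the 13975 genes tested, with a median log2 fold change of -0.34. Of the 43 falls 27 still passed, and of the 11 rises 9. The standard deviation of the log2 fold change across the genes went from 0.97 to 0.92, so most of the spread between ribosomal protein genes was there after the correction too. *Rpl23a* (-3.73) and *Rps28* (-3.17) hardly moved, and *Rpl28*, with 60.4% GC, went to -1.36 (all adjusted p under 0.05). With the longest transcript of each gene in the correction they were at -3.54, -2.31 and -2.40, so the last 2 values depended on the transcript taken. *Rpl36*, which has the highest GC content of the 77 (60.8%), went from -1.26 to -0.02 (adjusted p = 0.95). *Rps20*, which has the lowest (41.3%), went from -0.63 to -1.61 (adjusted p = 0.00251). The transcript taken for *Rps20* is also the longest of the 77, with 3706 bases against a median of 681. With the GC content and length of the longest in place of the shortest principal transcript, 28 genes were lower and 14 higher. This alternative was added with these results in view. Of all genes 17.1% were lower and 16.9% higher in it, and the median of the ribosomal protein genes was -0.26. What share of all genes passed in every fit tried was not computed, so the counts that follow stand without it. Under every scaling, filter, test, correction and left-out mouse that was tried, 16 falls and 2 rises passed. The 16 were *Rpl23a*, *Rps28*, *Rpl28*, *Rpl21*, *Rps15*, *Rps29*, *Rpl7a*, *Rpl41*, *Rpl24*, *Rpl19*, *Rps25*, *Rpl37a*, *Rps9*, *Rpl31*, *Rps24* and *Rpl14*, and the 2 were *Rps15a* and *Rps27a*.

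**Figure D5:**
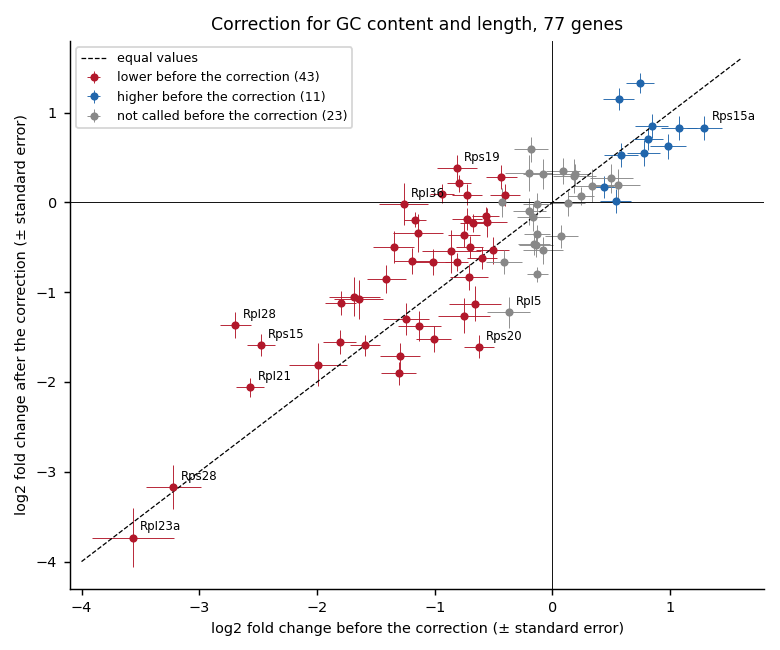
Log2 fold change corrected for GC content and length (y axis) against that before it (x axis) for the 77 genes, bars ± standard error, coloured by the call before the correction. Genes near the dashed line kept their value, as *Rps28* did, and *Rpl36*, *Rps19* and *Rps20* lie away from it.

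Many ribosomal protein genes have processed pseudogenes, copies of their mRNA scattered over the genome, and how the authors' counting treated reads that match several places is not given in the sources used here. The share of 100-base windows of a transcript that also occur in the transcript of another annotated gene had a median of 45.0% over the 77 genes and was over 50% for 35 of them. Of these 35 genes 21 fell and 5 rose, and among the other 42 genes the numbers were 22 and 6. *Rpl23a* shared 80% of its windows, *Rpl35* 83%, *Rps10* 89.5%, *Rpl10* 91.6% and *Rps27* 98.4%, so their reads are uncertain. No window was shared for *Rpl32*, which fell, and *Rps15* shared 10.2%. Another listed gene overlaps 16 of the 77 on the other strand, among them *Rpl23a*, *Rps28*, *Rpl28* and *Rps27a*, and whether the counting used strand is not given. Of the 61 genes with no such overlap 32 fell and 10 rose.

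Of the ribosomal proteins and near relatives that the symbol rule leaves out, 3 of 8 tested genes fell, against 27.7% of all genes tested. *Rpl36al*, a copy of *Rpl36a*, had 1445 and 1274 normalized counts in the controls and 551 and 676 in the cKO libraries, that is, -1.15 ± 0.14 on the log2 scale (adjusted p = 0.00176). *Rpl7l1*, a relative of *Rpl7*, had 1154 and 1193 normalized counts in the controls and 733 and 707 in the cKO libraries, that is, -0.70 ± 0.09 on the log2 scale (adjusted p = 0.00231). *Rpl22l1*, the paralog of *Rpl22*, had 210.4 and 186 normalized counts in the controls and 127 and 138 in the cKO libraries, that is, -0.58 ± 0.18 on the log2 scale (adjusted p = 0.0406). The other 5 passed in neither direction. *Rack1*, a signalling scaffold on the small subunit, had 12435 and 10827 normalized counts in the controls and 10658 and 11409.5 in the cKO libraries (change -0.07 ± 0.12). *Rps3a1* had 9793 and 7868 normalized counts in the controls and 9412 and 9078 in the cKO libraries (change 0.07 ± 0.14), and *Fau*, a ubiquitin-like fusion, 4684 and 4059.9 normalized counts in the controls and 3376 and 3751 in the cKO libraries (change -0.29 ± 0.12). The groups overlapped for *Rack1* and *Rps3a1* and not for *Fau*, which turned to 0.49 with the correction and was then called higher (adjusted p = 0.0276). *Rps27rt*, a copy of *Rps27* (change 0.88), had at most 32.4 normalized counts in any library. The pseudogene rows *Rpl10-ps3* and *Rpl9-ps6* had at most 16.2.

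The genes that make ribosomes had more calls in the lower direction, against 27.7% lower and 29.0% higher over all genes tested. Of 86 ribosome assembly factors 42 fell and 15 rose (median log2 fold change -0.36), and after the correction 59 fell and 2 rose (median -0.70). With any single mouse left out 28 to 32 fell and 4 to 7 rose. *Rrp9*, of a particle that processes the small subunit RNA, had 345 and 348 normalized counts in the controls and 64.8 and 47.3 in the cKO libraries, that is, -2.62 ± 0.23 on the log2 scale (adjusted p = 7.48e-04). *Nop10*, of another particle, which converts uridines in ribosomal RNA, had 617 and 539 normalized counts in the controls and 83.3 and 107 in the cKO libraries, that is, -2.60 ± 0.19 on the log2 scale (adjusted p = 5.46e-04). Among those that rose, *Utp20* had 1435 and 1397 normalized counts in the controls and 3008 and 3877 in the cKO libraries, that is, 1.27 ± 0.14 on the log2 scale (adjusted p = 0.00135), and *Dcaf13* had 733 and 618 normalized counts in the controls and 1183 and 1130.0 in the cKO libraries (change 0.78 ± 0.12). With the correction *Dcaf13* no longer passed (0.12, adjusted p = 0.470), and *Rrp9* and *Utp20* went to -1.41 and 0.78. Of 20 RNA polymerase I subunits and factors, which transcribe the ribosomal RNA genes, 9 fell and 2 rose (median -0.13), and 4 fell without control mouse 1. The largest falls were those of *Cd3eap* (-2.63 ± 0.53) and *Polr2f* (-2.42 ± 0.16), and *Twistnb* (0.82) and *Taf1d* (0.67) rose. After the correction the value of *Twistnb* was -0.27 and did not pass (adjusted p = 0.160), that of *Taf1d* was -0.31, called lower (adjusted p = 0.0416), and that of *Polr2f* was -1.08.

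Initiation factors, which bring the small subunit to the mRNA, moved both ways, with 15 lower and 14 higher of 39 (median -0.08), against 27.7% and 29.0% of all genes tested. *Eif4a2*, an RNA helicase, had 4348 and 4290.3 normalized counts in the controls and 12560.2 and 14039 in the cKO libraries, that is, 1.62 ± 0.11 on the log2 scale (adjusted p = 5.33e-04). *Eif4g2*, a scaffold for initiation without a cap, had 13412 and 13750.0 normalized counts in the controls and 29412 and 29354 in the cKO libraries, that is, 1.11 ± 0.12 on the log2 scale (adjusted p = 0.00144). In the other direction *Eif3g* had 971 and 900.4 normalized counts in the controls and 204 and 297 in the cKO libraries, that is, -1.92 ± 0.20 on the log2 scale (adjusted p = 0.00116), and *Eif4ebp1*, the mTOR target that holds back initiation, had 419.9 and 364 normalized counts in the controls and 131 and 105 in the cKO libraries, that is, -1.73 ± 0.19 on the log2 scale (adjusted p = 0.00128). With any single mouse left out 9 to 10 initiation factors fell and 9 (without *Bmal1* cKO mouse 2) to 12 rose. After the correction 15 fell and 6 rose, and *Eif4a2* and *Eif3g* were at 0.80 and -1.25. Of 14 elongation and termination factors, led by *Pabpc4* (-1.10), *Eif5a* (-0.76), *Etf1* (0.88) and *Abce1* (0.63), 4 fell and 2 rose (median -0.18), the falls close to the share over all genes and 1 to 2 in number with any single mouse left out. With the correction 7 fell and 1 rose, *Eif5a* (-0.36, adjusted p = 0.103) and *Etf1* (0.18, adjusted p = 0.159) no longer passed, and *Abce1* turned to -0.44 and was called lower (adjusted p = 0.0145). Of 21 genes of mTOR and S6 kinase signalling 8 fell and 7 rose (median -0.10). *Myc*, a transcription factor that drives ribosome production, had 1033 and 1431 normalized counts in the controls and 244 and 339 in the cKO libraries, that is, -2.08 ± 0.23 on the log2 scale (adjusted p = 0.00132). *Eif4ebp3* fell as well (-2.03), and *Larp4* (1.74) and *Deptor*, an inhibitor of mTOR (1.39), rose. With the correction the values were -1.11 for *Myc*, 0.45 for *Larp4* and 0.65 for *Deptor*, all still called.

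Mitochondrial ribosomal proteins, which serve a separate ribosome, form the list most like the cytosolic one in kind and size. Of the 78 tested 38 fell and 17 rose (median -0.34), against 27.7% and 29.0% of all genes tested, and after the correction 29 and 11 (median -0.27), against 17.4% and 17.3%. Leaving out any single mouse gave 20 (without control mouse 1) to 29 lower and 7 to 8 higher. They took 0.292% and 0.281% of the reads in the control and 0.220% and 0.220% in the *Bmal1* cKO libraries. *Mrps34* had 217 and 227 normalized counts in the controls and 13.4 and 20.3 in the cKO libraries, that is, -3.67 ± 0.32 on the log2 scale (adjusted p = 7.69e-04), and *Mrpl54* fell by 2.20 on the log2 scale. *Mrpl1* had 263 and 299.9 normalized counts in the controls and 694 and 797 in the cKO libraries, that is, 1.40 ± 0.14 on the log2 scale (adjusted p = 9.92e-04), and *Mrpl9* rose by 0.93 on the log2 scale. With the correction *Mrpl1* no longer passed (0.42, adjusted p = 0.0600), while *Mrpl9* (1.01), *Mrps34* (-2.31) and *Mrpl54* (-0.90) did. Calls in both directions were therefore seen in both kinds of ribosome, without and with the correction. Cycling cell markers, by comparison, had 7 lower and 4 higher of 20 (median 0.02), 6 lower and 1 higher after the correction (median -0.23), and 3 to 5 lower with any single mouse left out, with summed normalized counts of 33817 and 34780 against 40423 and 35972.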

How the data were processed

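RNA sequencing of 4 libraries, 2 labelled WT and 2 labelled *Bmal1* cKO, was analysed. Reads had been mapped by the authors to GRCm38 with STAR, and DESeq2 had been used for normalization, per the labels and methods. The counter, the annotation release and the use of strand are not given in the sources used here, and the labels and the methods name different library kits. The authors deposited a signal for each library, gene counts over a size factor, and listed 16015 genes whose mean was at least 3.39. Their own means, log2 fold changes, standard errors, test statistics and p-values are in the same table and were left aside. Dividing by the value of 1 read gave back whole reads (100% of values within 0.01 of a whole number in each library), 10312791 to 14156639 per library. The study gives 2 mice per group, and the number of libraries limits the precision more than the depth does.

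Values were transformed to log2(normalized count + 1), so changes of low genes are understated. Groups were compared by limma 3.58.1 (R 4.3.3, trend on) over the 13983 genes whose mean was at least 10. Tests were two-sided, and Benjamini-Hochberg adjusted p-values over all these genes were held against 0.05. The members and lists were chosen with earlier results of these data known. Named were the 10 largest falls and 10 largest rises among the genes called without overlap of the groups, the genes with listed roles, the 5 with the smallest change, the ribosomal proteins outside the symbol rule and, per related list, the 2 largest called changes in each direction. Some genes that these rules pick are not reported here. Genes named for GC content, shared sequence or stability were picked with their values known. GENCODE vM21 gave GC content, length and shared windows for 16003 genes, all 77 among them, from the shortest APPRIS principal transcript. Alternatives were pseudocounts of 0.5 and 5, other filters and scalings, recovered reads in edgeR 4.0.16 or DESeq2 1.42.0, the mouse number as a block, loess curves (span 0.3) that remove GC content and length from every library, and fits lacking a mouse. The main fit, edgeR, DESeq2, library total scaling and the correction with the shortest principal transcript were also run on simulated data. The other fits were not. With 2 libraries per group no outlier test was possible.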

Additional observations from a re-analysis of the deposited data

How the results depend on the processing

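With other pseudocounts, filters, scalings, tools or the block, genes called lower numbered 41 to 48. Genes called higher numbered 10 to 13 in the same fits apart from library total scaling, which gave 7 and a median log2 fold change of -0.79. The median was -0.34 with the correction for GC content and length, also together with the block. With the longest transcript, an alternative added after the data were seen, 28 genes were lower and the median was -0.26. Without each mouse in turn, 28 to 36 genes were lower and 2 to 11 higher, the lone mouse being assumed to vary like the other group, and 43 of 43 falls and 11 of 11 rises kept their direction.

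The mouse number as a block gave 41 genes lower and 10 higher. Same-numbered mice did not deviate together (r = -0.09 over 13983 genes), so the numbers were not taken as pairs.

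Of the 50 named genes, those that changed sign were as follows, and the cause was not tested. With the correction, with and without the block, the values were 0.38 for *Rps19*, 0.21 for *Rpl8*, 0.084 for *Rplp1*, 0.28 for *Rpsa*, 0.33 for *Rps14*, 0.59 for *Rps2*, 0.32 for *Rps7*, -0.38 for *Rpl23* and -0.0090 for *Rps12*. With the longest transcript they were 0.16 for *Rps19*, 0.27 for *Rpl8*, 0.32 for *Rplp1*, 0.62 for *Rps14*, 0.53 for *Rps2* and -0.34 for *Rpl23*. With library total scaling they were -0.15 for *Rpl23*, -0.14 for *Rplp0*, -0.091 for *Rps12* and -0.036 for *Rpl3*. Without a mouse the ranges were -0.47 to 0.059 for *Rps14*, -0.28 to 0.12 for *Rpl22*, -0.25 to 0.086 for *Rps7*, -0.059 to 0.21 for *Rpl23*, -2.0e-04 to 0.18 for *Rplp0* and -0.012 to 0.28 for *Rps12*. Of these genes, *Rps19*, *Rpl8*, *Rplp1* and *Rpsa* were called in the report. *Rps2* was called higher with the correction, and *Rps19* was higher with both the block and the correction (adjusted p = 0.0433).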
